A study of Homo sapiens with 40 samples.

Results

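The 36 genes described here encode proteins of the small nuclear ribonucleoproteins (snRNPs) and relatives of these proteins. They cover the Sm and LSm proteins, the SF3A and SF3B subunits, and proteins particular to the U1, U2, U5, U7, U11 and U12 particles. Among the LSm proteins, LSM1 and LSM12 are not part of an snRNP. The genes were chosen by symbol. All 36 symbols were found among the 55765 rows of the count files, and all 36 passed the filter on low counts in every fit.

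In an snRNP, Sm proteins close a ring around a uridine-rich site of the snRNA, and proteins particular to each snRNA complete the particle. The ring of SNRPB, SNRPD1, SNRPD2, SNRPD3, SNRPE, SNRPF and SNRPG is put on the RNA in the cytoplasm with the help of the SMN complex. SF3A and SF3B belong to the U2 snRNP and hold it at the branch site of the intron. LSm proteins are relatives of the Sm proteins. LSM2 to LSM7 join LSM8 in the nucleus to bind U6 snRNA, and they join LSM1 in the cytoplasm in a ring that works with PATL1 and the helicase DDX6 in the decapping and decay of deadenylated mRNA. LSM10 and LSM11 replace a pair of Sm proteins in the U7 snRNP, which processes histone pre-mRNA.

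The study asked how eIF4A2, a DEAD-box helicase, and the Ccr4-Not deadenylase complex act on the translation of mRNA. All 40 libraries were poly(A)-selected RNA-Seq of HEK293, an established human embryonic kidney cell line. In the immunoprecipitation (IP) experiment, cells without siRNA gave total RNA and RNA recovered by antibodies to the endogenous proteins eIF4A1, eIF4A2 or DDX6, with 3 libraries in each of these 4 groups. For the sucrose gradients, cells were treated with control siRNA or with siRNA to CNOT1, the scaffold of Ccr4-Not. Input RNA, the subpolysomal pool (fractions 1 to 5) and the polysomal pool (fractions 6 to 11) were sequenced, with 4 libraries in each of these 6 groups. The TNRC6 experiment compared total RNA after control siRNA with total RNA after siRNA to both TNRC6A and TNRC6B, which are partners of Argonaute in microRNA silencing, with 2 libraries in each group. No control-antibody IP was analysed here. In each kind of RNA, fewer cells carrying an mRNA and less of it in each cell cannot be told apart. The labels do not say whether libraries of a group came from separate cultures, so the p-values measure the spread between these libraries, which may be technical.

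Each library held between 15353317 and 46018900 gene counts, and the 36 genes together took between 0.406% and 0.754% of them. CNOT1 was read first as a check of the labels. In input RNA it stood at 627 to 711 in counts-per-million (CPM, scaled to TMM-adjusted totals) after control siRNA and at 36.8 to 41.4 CPM after CNOT1 siRNA, and in subpolysomal RNA at 235 to 317 against 73.5 to 89.5 CPM. In polysomal RNA the library labelled control siRNA, replicate 3, had 28.3 CPM where the other 3 had 470 to 500, and the library labelled CNOT1 siRNA, replicate 3, had 631 CPM where the other 3 had 24 to 31.6. These 2 libraries go against their labels, and the main fit of each comparison that uses them is given with and without both. TNRC6A fell from 178 and 188 CPM to 40.5 and 64.7 CPM and TNRC6B from 67.6 and 73 to 17.7 and 26.3 CPM. Of the HEK293 markers, VIM, KRT8, KRT18 and NEFM were present throughout, NEFM at 197 to 6041 CPM, while PAX2 was near 0 at 0.098 to 1.57 CPM. Markers of other cell types (PTPRC, CD3E, HBB, ALB, MYH6, COL1A2) had at most 12 counts in any library.

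Levels of the 36 mRNAs spanned a wide range. Per kilobase of the canonical coding transcript, the highest in input RNA after control siRNA was SNRPD2 at 638 ± 41.4 CPM per kb (SD, n = 4), followed by SNRPF at 326 ± 22.1, SF3B5 at 213 ± 16.2 and SNRPG at 208 ± 17.7 CPM per kb. SNRPD2 and SNRPF were separated by far more than their spread, while SF3B5 and SNRPG lay within it. The lowest were LSM6 at 14.8 ± 0.966, SNRNP35 at 11.4 ± 0.232 and LSM11 at 6.83 ± 0.245 CPM per kb. Within the Sm ring, whose members sit in equal number in the particle, the per-kilobase level of SNRPD1 was 30.9 ± 1.06 CPM per kb, the lowest of the 7. This rank rests on the transcript chosen, which is 4858 nt long for SNRPD1 and 452 nt for SNRPF. Before scaling by length SNRPD1, at 150 CPM, was above SNRPF (147), SNRPB (141) and SNRPG (124). It was below SNRPE (171), SNRPD3 (255) and SNRPD2 (329). SNRPD2 was first and LSM11 last in the total RNA of the IP experiment as well, at 657 ± 167 and 7.61 ± 0.621 CPM per kb (SD, n = 3). Some of these ranks turned when the level was taken per kilobase of all annotated exons of the gene. SNRPB, at 27.3 CPM per exon kb, was then below SNRPD1 at 30.8 in input RNA, and SNRNP35 at 3.58 was last, below LSM11 at 6.83. SNRPD2 stayed first in input RNA at 228 CPM per exon kb, beside 213 for SF3B5, while in total RNA of the IP experiment SF3B5 at 299.9 ranked above SNRPD2 at 235.

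As a group the 36 genes had short coding sequences. Their median was 534 nt (231 to 6411) against 1437 nt for 12684 protein-coding genes tested in the gradient, and their 5′UTRs had a median of 82.5 nt against 145 nt. The rings were short, with a median coding length of 309 nt for the 7 LSm ring genes and 357 nt for the 7 Sm ring genes, while the SF3B genes had a median of 2688 nt (261 to 3915). The study searched mRNAs for purine-rich motifs, so the transcripts were read for purine tetramers on the sense strand (AAGA and AGAA, then GAAA and GAGA, next AGAG and GGAA, and last AAAA and GAAG), with matches not allowed to overlap. The members held a median of 1.94 per 100 nt of 5′UTR (35 genes, since the 5′UTR of LSM5 is too short) against 1.67 for the coding genes, and 3.68 per 100 nt of coding sequence against 3.04. The GC content of their 5′UTRs was 64.7% against 67.5%.

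The IP comparisons asked which mRNAs each helicase was recovered with, relative to total RNA. In the eIF4A1 IP the members split by role. Of the 36 genes, 20 were lower and 9 higher at an edgeR false discovery rate (FDR) below 0.05, where 26.5% of the 17474 genes tested were lower and 26.1% higher. The median log2 fold change of the members was -0.57 against 0.04 over all genes. Each of the 3 U1, 2 U2, 3 SF3A, 5 SF3B and 3 U5 and tri-snRNP genes was lower. The LSm ring had 5 of 7 genes higher (LSM1, LSM2, LSM4, LSM5 and LSM6) and none lower, and the Sm ring had 1 higher and 3 lower.

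The lowest member was SF3A1, a subunit needed for the mature U2 snRNP (chr22:30727977-30752908, minus strand, hg19). It stood at 332, 391 and 239 CPM in total RNA and at 63, 75.6 and 82.2 CPM in the eIF4A1 IP, so the groups were far apart, and its log2 fold change was -2.12 ± 0.25 (FDR = 1.85e-05), where ± gives the standard error. SF3B2, which binds near the branch site, followed at -2.04 ± 0.29 (FDR = 6.97e-05). The other SF3A genes, SF3A3 at -1.77 ± 0.13 and SF3A2 at -1.71 ± 0.36, lay close behind (FDR = 1.17e-06 and 0.00145). SNRNP70, the U1 protein that binds the first stem-loop of U1 snRNA, was at -1.70 ± 0.29 (FDR = 0.000296). The other 15 lower members lay between -1.51 for SNRPB2 and -0.55 for SNRNP27, with SF3B1, the large SF3B subunit that holds the branch adenosine, at -1.20.

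At the other end stood LSM5 (chr7:32524950-32534895, minus strand, hg19), a member of both LSm rings. It had 92.8, 106 and 87.2 CPM in total RNA and 151, 252 and 181 CPM in the eIF4A1 IP, all 3 above total RNA, with a log2 fold change of 1.03 ± 0.24 (FDR = 0.00271). LSM10 of the U7 particle rose by 1.01 ± 0.35 (FDR = 0.0267) on the log2 scale. LSM2 and LSM6 of the rings rose by 0.99 ± 0.24 and 0.96 ± 0.24 (FDR = 0.00404 and 0.00485). LSM12, an LSm-domain protein outside the rings, rose by 0.87 ± 0.26 (FDR = 0.0115). The remaining 4 of the 9 were LSM1, LSM4, SNRPG and SNRNP25, between 0.79 and 0.86. The 7 genes not called were SNRPD1, SNRPE, SNRPF, SNRNP35, LSM3, LSM7 and LSM11, between -0.33 and 0.38.

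Replicate 2 carried the largest values of these genes. In total RNA and in each of the 3 IPs, the second library was the highest of the 3 for each of the 7 LSm ring genes, for example 287, 470 and 251 CPM for LSM4 in the eIF4A1 IP. Leaving out the second eIF4A1 IP library, or the third total RNA library, reduced the 9 higher members to 3 in either case and left 20 lower. Of all genes, 4030 or 3937 were higher in these fits and 4246 or 4149 lower. LSM10 was then at 0.585 or 0.79 and LSM12 at 0.60 or 0.75, no longer called, and LSM10 also missed the threshold without the first total RNA library, at 1.06. With total counts as the only scaling, 9 members were higher and 16 lower, and of all genes 6441 were higher and 3104 lower, where the main fit had 4555 and 4638.

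In the eIF4A2 IP nearly all calls were downward. Of the 36 genes, 22 were lower and 1 higher, against 25.8% and 24.5% of all genes, and the members' median was -0.86 against 0.01 over all genes. The U1, U2, SF3A, SF3B, and U5 and tri-snRNP genes were again lower without exception (16 of 16), joined by 4 of 7 Sm ring genes and 2 of 3 U11/U12 genes. LSM5 was the single gene that rose, at 0.67 ± 0.24 (FDR = 0.0301), from the total RNA values above to 123, 197 and 134 CPM. SF3A1, SF3A2 and SF3B2 were the lowest at -2.25 ± 0.25, -2.17 ± 0.37 and -2.07 ± 0.29 (FDR = 1.11e-05, 0.000288 and 6.02e-05). SF3A2 had 155, 169 and 95.1 CPM in total RNA and 42.8, 34.7 and 16 CPM in the IP.

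SNRPD2 (chr19:46190718-46195827, minus strand, hg19), a Sm ring protein, was the fourth lowest in the eIF4A2 IP. Its values were 379, 397 and 240 CPM in total RNA, 132, 251 and 163 in the eIF4A1 IP, 89, 115 and 80 in the eIF4A2 IP and 228, 308 and 201 in the DDX6 IP. The eIF4A2 libraries were below every library of the other groups. The log2 fold change from total RNA was -1.84 ± 0.27 (FDR = 8.84e-05) for eIF4A2, -0.89 ± 0.26 (FDR = 0.011) for eIF4A1 and -0.46 ± 0.26 (FDR = 0.159) for DDX6, so the last was not called. SNRNP70 was at -1.63 ± 0.29 (FDR = 0.000399) in the eIF4A2 IP.

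The eIF4A2 count of higher genes depended on the fit. The replicate numbers marked libraries that deviated together, and with the replicate number as a block 5 members were higher and 27 lower (30.4% and 31.9% of all genes). The added higher genes were LSM1, LSM2, LSM6 and LSM10. In that fit the LSm ring had 4 of 7 genes higher and 2 lower. Scaled to total counts only, 7 were higher and 20 lower (37.4% and 16.3% of all genes), with the median of all genes at 0.32. The higher count was 0 without the first or the third total RNA library or the second eIF4A2 IP library, where LSM5 was at 0.65, 0.61 and 0.44, and 2 without the first or the third eIF4A2 IP library. Higher calls over all genes ran from 3624 to 4091 in these fits, against 4283 in the main fit.

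In the DDX6 IP the members were nearly balanced in number, with 9 higher and 12 lower against 22.7% and 23.3% of all genes and a median of -0.29 against 0.01. The same 5 LSm ring genes as with eIF4A1 were higher, with LSM12, LSM10, SNRPG and SNRNP25. LSM6 rose by 1.30 ± 0.24 (FDR = 0.000877), from 43.9, 49.2 and 45.7 CPM in total RNA to 90.2, 146 and 105 CPM, with no overlap. LSM12 followed at 1.28 ± 0.26 (FDR = 0.00141). LSM1, found only in the cytoplasmic ring, rose by 1.17 ± 0.27 (FDR = 0.00291).

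LSM5 at 1.16 ± 0.24 and SNRPG, with the shortest coding sequence of the Sm ring, at 1.15 ± 0.28 completed the 5 largest rises (FDR = 0.00158 and 0.00449). All 3 SF3A and 4 of 5 SF3B genes were lower, as were SNRNP70, SNRPA, SNRPB2, SNRNP200 and SNRNP48. The lowest were SNRNP70 at -1.67 ± 0.29 (FDR = 0.00048) and SF3A1 at -1.65 ± 0.25 (FDR = 0.000171). SF3A2 was at -1.57 ± 0.36, SF3B2 at -1.55 ± 0.28 and SNRNP200, the helicase that unwinds the U4/U6 pairing, at -1.32 ± 0.21 (FDR = 0.00309, 0.000684 and 0.000245). With the replicate block the counts were 12 higher and 18 lower, against 29.6% and 30.4% of all genes. Scaled to total counts only, they were 12 and 11 (5056 and 2991 of all genes, against 3965 and 4079). Without the second DDX6 IP library they were 6 and 12 (3242 and 3357 of all genes). The 3 comparisons share the total RNA libraries, so their likeness is no independent evidence of a common pattern.

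**Figure D1:**
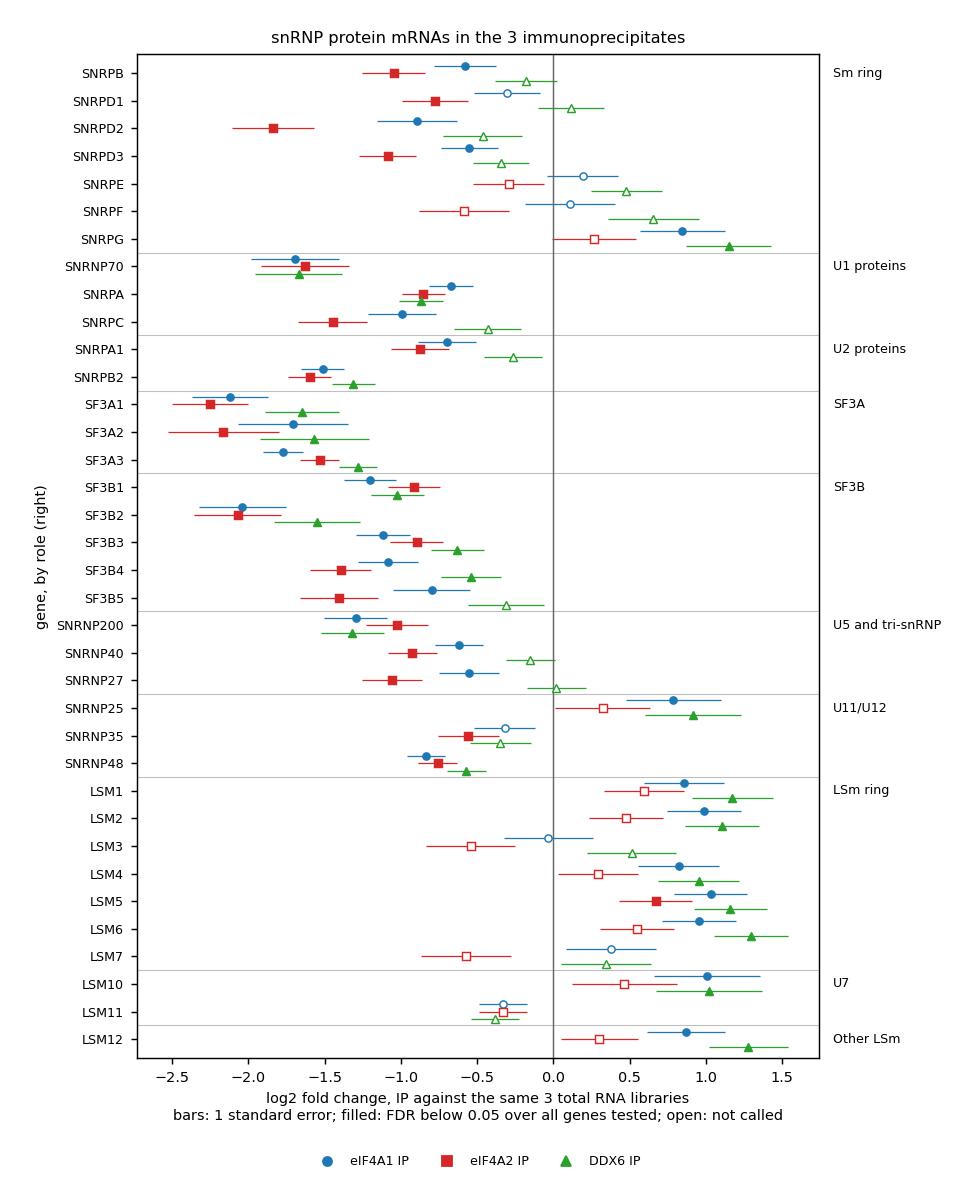
Log2 fold change of each of the 36 genes in the eIF4A1, eIF4A2 and DDX6 IPs against total RNA (x axis), with genes grouped by role on the y axis. Bars are 1 standard error and filled points have an edgeR FDR below 0.05. In the eIF4A1 and DDX6 IPs LSM1, LSM2, LSM4, LSM5 and LSM6 of the LSm ring lie to the right of 0 and are filled, and in all 3 IPs the SF3A and SF3B genes lie to the left, down to -2.25 for SF3A1 with eIF4A2.

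**Figure D2:**
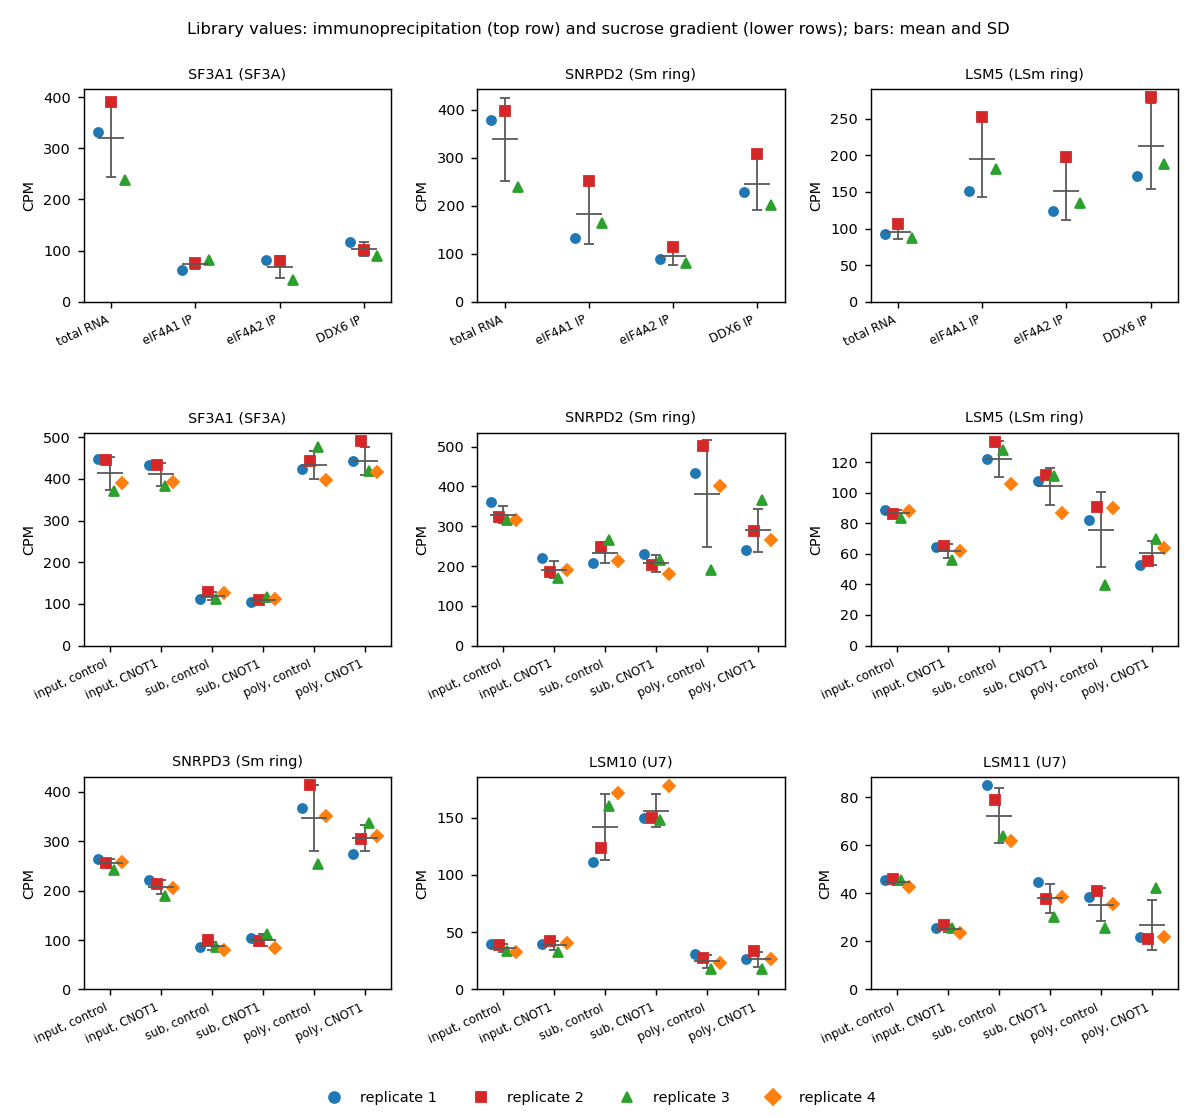
CPM in every library for SF3A1, SNRPD2 and LSM5 in the IP experiment (top row) and for SF3A1, SNRPD2, LSM5, SNRPD3, LSM10 and LSM11 in the gradient (lower rows), with group mean and SD. SF3A1 falls from 239 CPM or more in total RNA to 117 CPM or less in the IPs, and the polysomal libraries labelled replicate 3 are the lowest after control siRNA and the highest after CNOT1 siRNA in SNRPD2, LSM5 and LSM11.

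Compared directly, the eIF4A2 IP held less of these mRNAs than the DDX6 IP. Of the 36 genes, 17 were lower and 0 higher, against 11.3% and 9.82% of all genes, and the members' median was -0.62 against 0.00. The Sm ring was lower in full (7 of 7), the LSm ring in 3 of 7 (LSM3, LSM6 and LSM7). SNRPD2 showed the largest difference, -1.38 ± 0.26 (FDR = 0.00476), followed by SNRPF at -1.24 ± 0.30 (FDR = 0.0132). SNRPF had 94.1, 147 and 92.5 CPM with eIF4A2 and 218, 365 and 207 CPM with DDX6, so the groups did not overlap.

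SF3B5, the small SF3B subunit, was at -1.09 ± 0.25 (FDR = 0.0107) and SNRNP27 of the tri-snRNP at -1.08 ± 0.20 (FDR = 0.00395). LSM3, shared by both LSm rings, was at -1.06 ± 0.29 (FDR = 0.0238). No SF3A, U11/U12 or U7 gene was called. With the replicate block 26 were lower (22% of all genes), among them all 7 LSm ring genes. The count fell to 4 without the second DDX6 IP library, to 5 without the first eIF4A2 IP library and to 10 without the third, with the members' median between -0.62 and -0.50 in these 3 fits. Lower calls over all genes fell as well, from 1969 of 17474 to 742 of 17884, 723 of 17783 and 1193 of 17797. LSM3 was not called in any of these 3 fits (-0.97 to -0.75), and SNRPF and SF3B5 were not called without the first eIF4A2 or the second DDX6 library. Under total-count scaling, 14 members were lower and 0 higher, while all genes turned from 1716 higher and 1969 lower to 2676 and 1145.

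For eIF4A2 against eIF4A1, the pair of paralogues the study set side by side, edgeR called 0 members, with 1.06% of all genes called in either direction. There were 9 members and 3116 of all genes at an unadjusted p below 0.05, and 1 member and 700 genes by DESeq2. The members' median was -0.43 against -0.02 over all genes, and all 7 Sm ring and all 7 LSm ring genes had a negative estimate, from -0.96 for LSM7 to -0.26 for LSM1. With the replicate block, 19 members were lower and 0 higher (8.7% and 7.12% of all genes), namely 7 of 7 Sm ring genes, 6 of 7 LSm ring genes and 6 others. In that fit SNRPD2 was at -0.93 ± 0.15 (FDR = 0.00328) and LSM7 at -0.86 ± 0.19 (FDR = 0.0109), both chosen here after their values were seen.

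DDX6 against eIF4A1 gave 0 calls by edgeR among the members and 0.0916% of all genes in either direction. There were 7 members and 2438 of all genes at an unadjusted p below 0.05, and 1 member and 541 genes by DESeq2. The median was 0.31 against -0.01 over all genes. With the replicate block 11 members were higher and 0 lower (6.08% and 3.82% of all genes). They came from 8 of the 10 role groups, with LSM3 the single gene of the LSm ring at 0.54 ± 0.11 (FDR = 0.0148), named after its value was seen.

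Coding length and log2 fold change were correlated across the members in the IPs. Length also differed by role, with medians of 309 nt for the LSm ring, 1506 nt for SF3A and 2688 nt for SF3B. The correlation therefore does not separate length from role. Across the 36 genes, log2 coding length and log2 fold change had Pearson's r = -0.731 (Spearman's rho = -0.763) for eIF4A1, -0.536 (-0.552) for eIF4A2 and -0.762 (-0.786) for DDX6. Over the 13628 coding genes tested the same r was -0.169, -0.002 and -0.263. For eIF4A2 against DDX6 the values were r = 0.67 and rho = 0.631 among the members and r = 0.383 among all coding genes. These points share libraries and, for the 3 IPs, the total RNA, so they are a description across genes, which are not independent replicates. SF3B5 and SNRPD2 are short genes (coding length 261 and 357 nt) that did not follow this trend, with -0.80 and -0.89 in the eIF4A1 IP. Tetramers in the 5′UTR gave r = -0.038, -0.146 and 0.023 with the 3 IPs (35 genes), and GC content of the 5′UTR gave 0.351, 0.336 and 0.34. Over all coding genes these were -0.108, -0.071 and -0.113 for tetramers and 0.224, 0.157 and 0.213 for GC content. Tetramers in the coding sequence gave 0.025, 0.021 and 0.103 among the members, against -0.297, -0.238 and -0.206 over all coding genes.

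**Figure D3:**
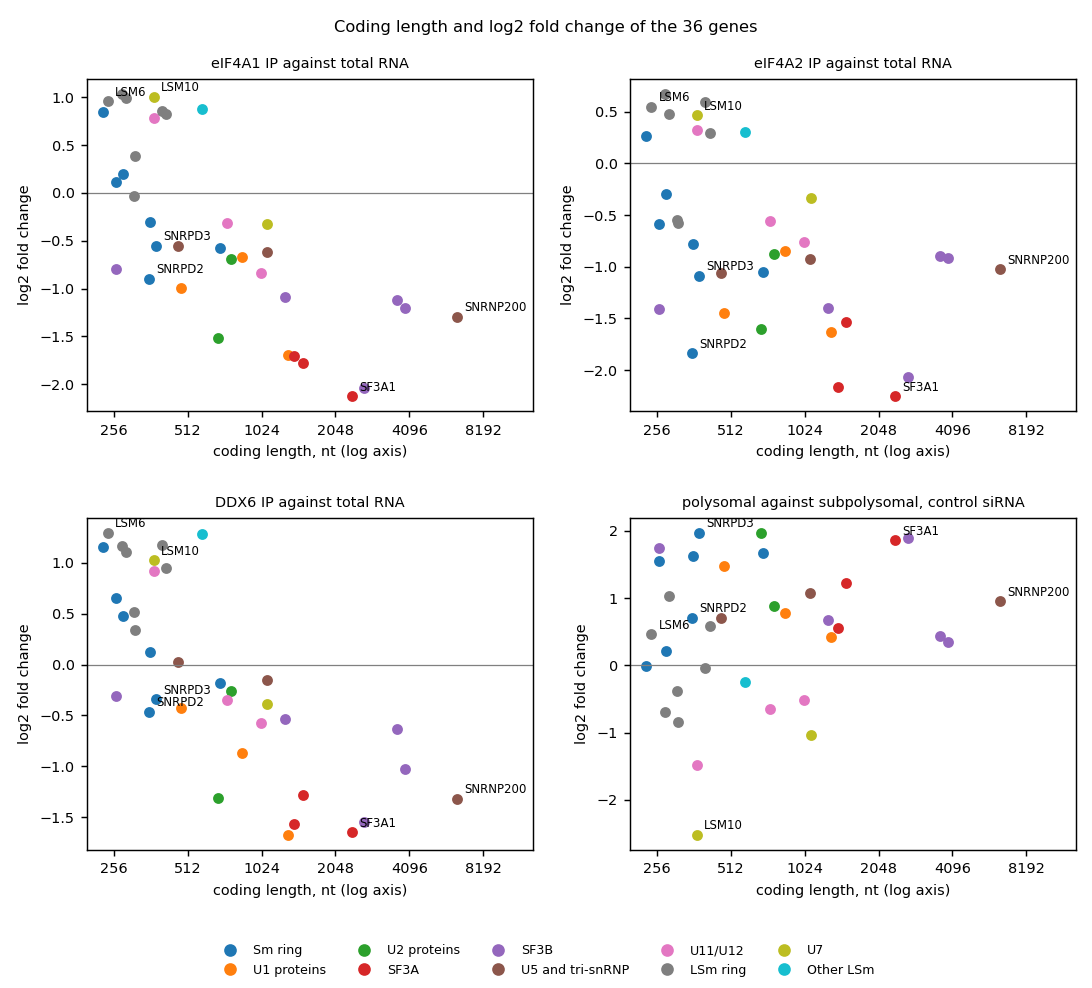
Coding length (x axis, nt, log scale) against log2 fold change (y axis) of the 36 genes in the 3 IPs against total RNA and in polysomal against subpolysomal RNA after control siRNA, coloured by role. In the IP panels most of the short LSm genes sit near the top and SF3A1 near the bottom, while in the polysomal panel LSM10 at -2.52 and SNRPD3 at 1.98 have nearly the same coding length.

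In the gradient, the question was how each mRNA was shared between ribosome-poor and ribosome-rich fractions. After control siRNA 19 of the 36 genes were higher and 7 lower in polysomal than in subpolysomal RNA, against 32.7% and 33% of the 15500 genes tested, and the members' median log2 fold change was 0.63 against 0.02. The roles differed. The Sm ring had 5 of 7 higher and none lower, U2 2 of 2, U5 and tri-snRNP 3 of 3, SF3B 4 of 5, and U1 and SF3A 2 of 3 each. All 3 U11/U12 and both U7 genes were lower, and the LSm ring was divided with 1 higher (LSM2) and 2 lower (LSM5 and LSM7).

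SNRPD3 (chr22:24951926-24978020, plus strand, hg19), of the Sm ring, was the highest. It had 86.8, 99.1, 85.7 and 80.6 CPM in subpolysomal and 367, 413, 254 and 351 CPM in polysomal RNA, a log2 fold change of 1.98 ± 0.17 (FDR = 1.52e-06). The 254 CPM comes from the library labelled replicate 3 and is still above every subpolysomal value. SNRPB2, the U2 protein that binds a loop of U2 snRNA, was at 1.97 ± 0.17 (FDR = 1.41e-06), SF3B2 at 1.89 ± 0.15 (FDR = 7.67e-07) and SF3A1 at 1.86 ± 0.14 (FDR = 6.05e-07). SF3B5 was at 1.75 ± 0.33 (FDR = 0.000506) with a wide spread, since its subpolysomal values were 37.9, 36.2, 94.6 and 59.9 CPM.

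LSM10 (chr1:36856839-36863509, minus strand, hg19) was the lowest by a wide margin. Its values were 112, 124, 160 and 171 CPM in subpolysomal and 30.6, 27.2, 17.6 and 23.4 CPM in polysomal RNA, a log2 fold change of -2.52 ± 0.21 (FDR = 1.21e-06). SNRNP25 of the U11/U12 particle was at -1.48 ± 0.19 (FDR = 2.65e-05) and LSM11, the other U7 protein, at -1.04 ± 0.18 (FDR = 0.000294). The LSm ring genes LSM7 and LSM5 were at -0.84 ± 0.25 (FDR = 0.00959) and -0.69 ± 0.23 (FDR = 0.018). LSM2, of the same ring, was higher at 1.02 ± 0.18 (FDR = 0.000269). The 10 genes not called were SNRPE, SNRPG, SNRNP70, SF3A2, SF3B1, LSM1, LSM3, LSM4, LSM6 and LSM12, between -0.38 and 0.59.

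Without both polysomal libraries labelled replicate 3, the control counts were 22 higher and 7 lower (32.3% and 35.4% of all genes), and each of the 26 calls was kept. SNRPD3 was then at 2.11 ± 0.12, SNRPB2 at 2.05 ± 0.15, SF3B2 at 1.81 ± 0.11, SF3A1 at 1.83 ± 0.11 and SF3B5 at 1.94 ± 0.31. On the lower side LSM10 was at -2.37 ± 0.18, SNRNP25 at -1.32 ± 0.14, LSM11 at -0.90 ± 0.15, LSM7 at -0.65 ± 0.21 and LSM5 at -0.47 ± 0.12. LSM4 and LSM6 joined the higher genes at 0.86 ± 0.19 (FDR = 0.00192) and 0.68 ± 0.13 (FDR = 0.000768), and SNRPE at 0.43 ± 0.13 (FDR = 0.0122).

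After CNOT1 siRNA 20 members were higher and 8 lower in polysomal RNA, against 34.6% and 32.1% of 15654 genes, with a median of 0.47 against 0.04. Without both libraries labelled replicate 3 the counts were 21 and 10 (36.6% and 34.6%). All U1, U2, SF3A, and U5 and tri-snRNP genes were higher, as were 5 of 7 Sm ring and 4 of 5 SF3B genes. SF3B2 was at 2.24 ± 0.11 (FDR = 2.58e-08), SF3A1 at 2.01 ± 0.11 (FDR = 3.8e-08) and SNRPB2 at 1.68 ± 0.13 (FDR = 3.18e-07). SNRPD3 was at 1.62 ± 0.12 (FDR = 2.62e-07) and SNRNP200 at 1.49 ± 0.20 (FDR = 2.4e-05).

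The LSm ring had 4 of 7 lower and none higher after CNOT1 siRNA (LSM1, LSM3, LSM5 and LSM7). LSM10 was again lowest at -2.58 ± 0.17 (FDR = 1.1e-07), with 150, 150, 148 and 178 CPM in subpolysomal and 26.8, 33.2, 17.8 and 26.9 CPM in polysomal RNA. SNRNP25 was at -1.53 ± 0.12 (FDR = 2.78e-07), LSM7 at -0.99 ± 0.13 (FDR = 2.76e-05) and LSM5 at -0.79 ± 0.13 (FDR = 0.000168). LSM12 was at -0.78 ± 0.13 (FDR = 0.000143). Without both libraries labelled replicate 3 all 28 calls were kept, with SF3B2 at 2.29 ± 0.11, SF3A1 at 2.04 ± 0.11, SNRPB2 at 1.74 ± 0.12, SNRPD3 at 1.58 ± 0.12 and SNRNP200 at 1.25 ± 0.14. LSM10, SNRNP25, LSM7, LSM5 and LSM12 were at -2.42 ± 0.13, -1.47 ± 0.11, -0.92 ± 0.13, -0.86 ± 0.13 and -0.77 ± 0.14 in that fit. With total counts as the only scaling, which put the median of all genes at -0.26, 16 members were higher and 10 lower (3701 and 6550 of all genes, against 5416 and 5032). Log2 coding length and these log2 fold changes had r = 0.195 after control and 0.454 after CNOT1 siRNA (36 genes), and 0.1 and 0.439 without both libraries labelled replicate 3. Over all coding genes, with all labelled libraries, r was 0.091 and 0.168.

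**Figure D4:**
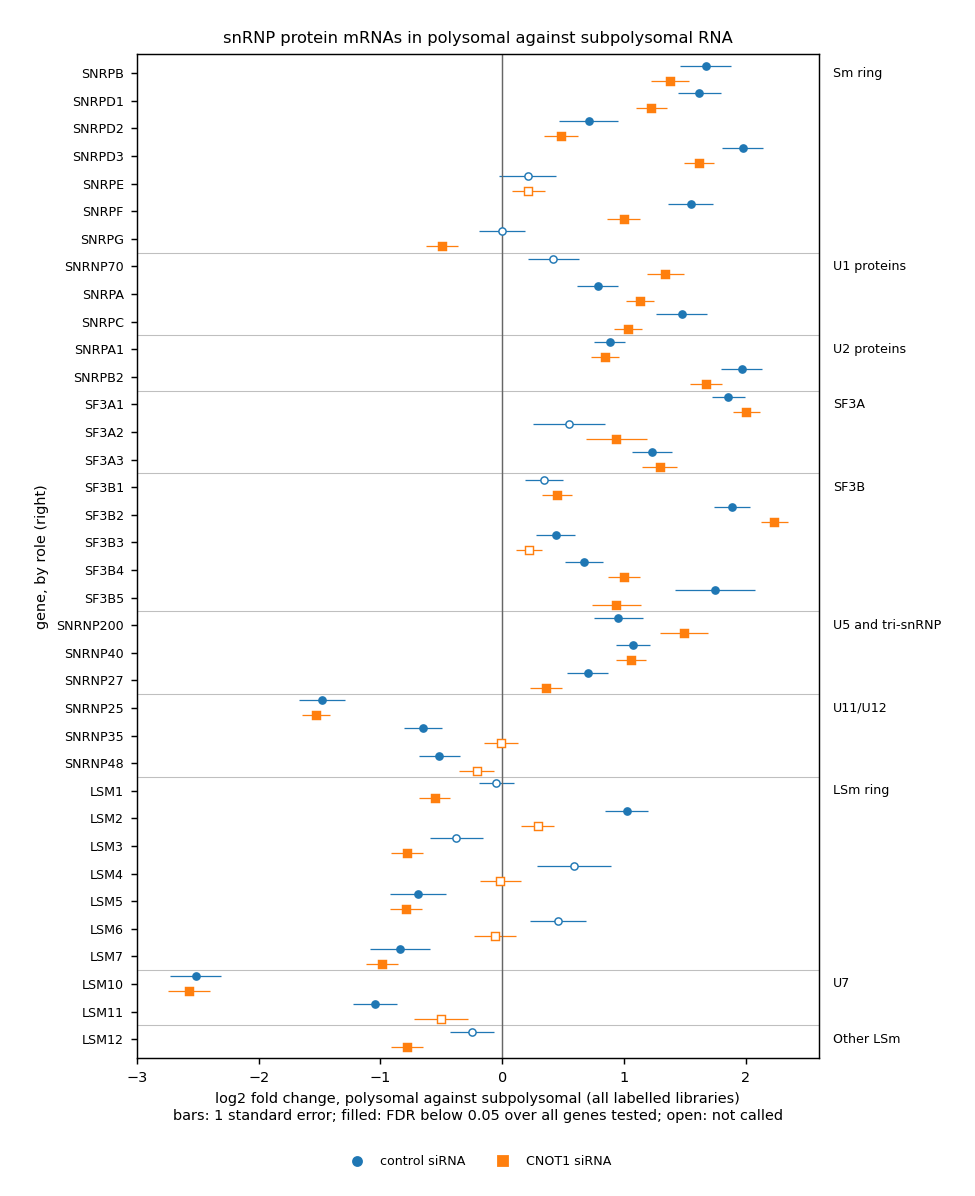
Log2 fold change of polysomal against subpolysomal RNA (x axis) for each of the 36 genes after control siRNA (circles) and CNOT1 siRNA (squares), grouped by role, in all labelled libraries. Bars are 1 standard error and filled points have an edgeR FDR below 0.05. The LSM10 points lie at -2.52 and -2.58 (-2.37 and -2.42 without both libraries labelled replicate 3), and most Sm ring and SF3 genes lie to the right of 0.

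The knockdown comparisons asked how CNOT1 siRNA changed the members in each kind of RNA. In input RNA 18 were lower and 3 higher, against 31% and 29.4% of 15686 genes, with a median of -0.21 against -0.02. The Sm ring had 6 of 7 lower (all but SNRPG) and the LSm ring 5 of 7 (LSM3 to LSM7). Most differences were small. LSM11 had the largest, -0.82 ± 0.06 (FDR = 5.23e-08), from 45.6, 45.9, 45.5 and 42.5 CPM to 25.6, 26.9, 25.6 and 23.3 CPM, with tight and separate groups.

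SNRPD2 fell from 360, 324, 316 and 315 CPM to 220, 184, 170 and 190 CPM, a log2 fold change of -0.78 ± 0.07 (FDR = 3.32e-07). LSM4 was at -0.78 ± 0.07 (FDR = 3.44e-07), SNRPE of the Sm ring at -0.61 ± 0.09 (FDR = 2.29e-05) and SNRNP200 at -0.50 ± 0.06 (FDR = 6.73e-06). The 3 that rose were SF3A2 at 0.28 ± 0.07 (FDR = 0.00363), SNRNP40 of the U5 particle at 0.23 ± 0.06 (FDR = 0.00356) and SF3B2 at 0.14 ± 0.06 (FDR = 0.0375). The last was not called without the third or the fourth control library or the first or the second CNOT1 siRNA library (0.12 to 0.13). In a fit over all 24 gradient libraries, which include the 2 that go against their labels, 9 were lower and 0 higher, against 15.6% and 13.4% of all genes. Under total-count scaling, 17 were lower and 8 higher (23.7% and 37.1% of all genes).

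In subpolysomal RNA CNOT1 siRNA gave 6 lower and 3 higher members, against 16.1% and 10.8% of 15823 genes, with a median of 0.07 against -0.07. LSM11 was the lowest at -0.93 ± 0.15 (FDR = 0.00217), from 84.9, 78.9, 63.7 and 61.9 CPM to 44.9, 37.7, 30.2 and 38.6 CPM. SNRNP70 was at -0.88 ± 0.21 (FDR = 0.0128), although its control values were split at 150, 134, 252 and 242 CPM. SNRNP35 and SNRNP48 of the minor spliceosome were at -0.50 ± 0.12 (FDR = 0.00984) and -0.49 ± 0.15 (FDR = 0.0297), and SNRPA of U1 at -0.47 ± 0.13 (FDR = 0.0223). The other gene was SF3B4 at -0.39 ± 0.13 (FDR = 0.0496).

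The 3 higher genes were LSM2, from 21.4, 26.1, 31.4 and 21.9 to 42.9, 39, 44.8 and 36.1 CPM and 0.69 ± 0.15 (FDR = 0.00688), LSM1 at 0.47 ± 0.11 (FDR = 0.0116) and SNRPG at 0.39 ± 0.13 (FDR = 0.0408). LSM1 and LSM2 are partners in the cytoplasmic ring, while the other 5 genes of the LSm ring were not called. The 9 calls became 5 without the second or the third CNOT1 siRNA library, where SNRPG (0.33 and 0.41), SNRPA (-0.43 and -0.47) and SNRNP48 (-0.50 and -0.46) were among those lost, and 6 without the fourth control library. Calls over all genes fell as well in these fits, from 4264 to 3181, 3113 and 3345. SNRPG was also lost without the first, the second or the fourth control library or the first CNOT1 siRNA library (0.33 to 0.42), SNRNP48 without the first or second control (-0.41 in each) or the fourth CNOT1 siRNA library (-0.46), and SNRPA without the fourth control library (-0.37). Replicate numbers paired the subpolysomal libraries, and with the block 13 members were higher and 10 lower (25.1% and 34.1% of all genes). Scaled to total counts only, which moved the median of all genes from -0.07 to 0.21, 15 were higher and 1 lower (27.1% and 6.28%). The gene still lower was LSM11. DESeq2 gave 7 higher and 5 lower members (2408 and 2320 of all genes), so which direction held more members depended on the fit. The exons of SNRNP35 overlap the antisense gene RILPL1 over 2063 nt, and the strand setting of the counting is not given in the sources used here.

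In polysomal RNA edgeR called 0 members and 0% of 14474 genes when all labelled libraries were used. An unadjusted p below 0.05 was reached by 0 members and 101 genes, and by DESeq2 0 of either were called. Without both libraries labelled replicate 3, 14 members were lower and 1 higher, against 18.4% and 22.2% of 14514 genes. The Sm ring had 5 of 7 lower and the LSm ring 4 of 7. LSM4 was at -0.96 ± 0.12 (FDR = 0.000364) and LSM11 at -0.83 ± 0.09 (FDR = 0.000292).

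SNRPD2 was at -0.75 ± 0.11 (FDR = 0.0007), SNRPE at -0.64 ± 0.12 (FDR = 0.00218) and LSM5 at -0.62 ± 0.09 (FDR = 0.00101) in that fit of 6 libraries, and SNRNP40 was the higher gene at 0.27 ± 0.09 (FDR = 0.0345). SNRPD2 shows how the labels bear on it. It had 434, 502, 190 and 402 CPM after control siRNA and 239, 288, 366 and 266 CPM after CNOT1 siRNA, replicates 1 to 4 in order, and the library labelled replicate 3 was the lowest of the first group and the highest of the second.

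**Figure D5:**
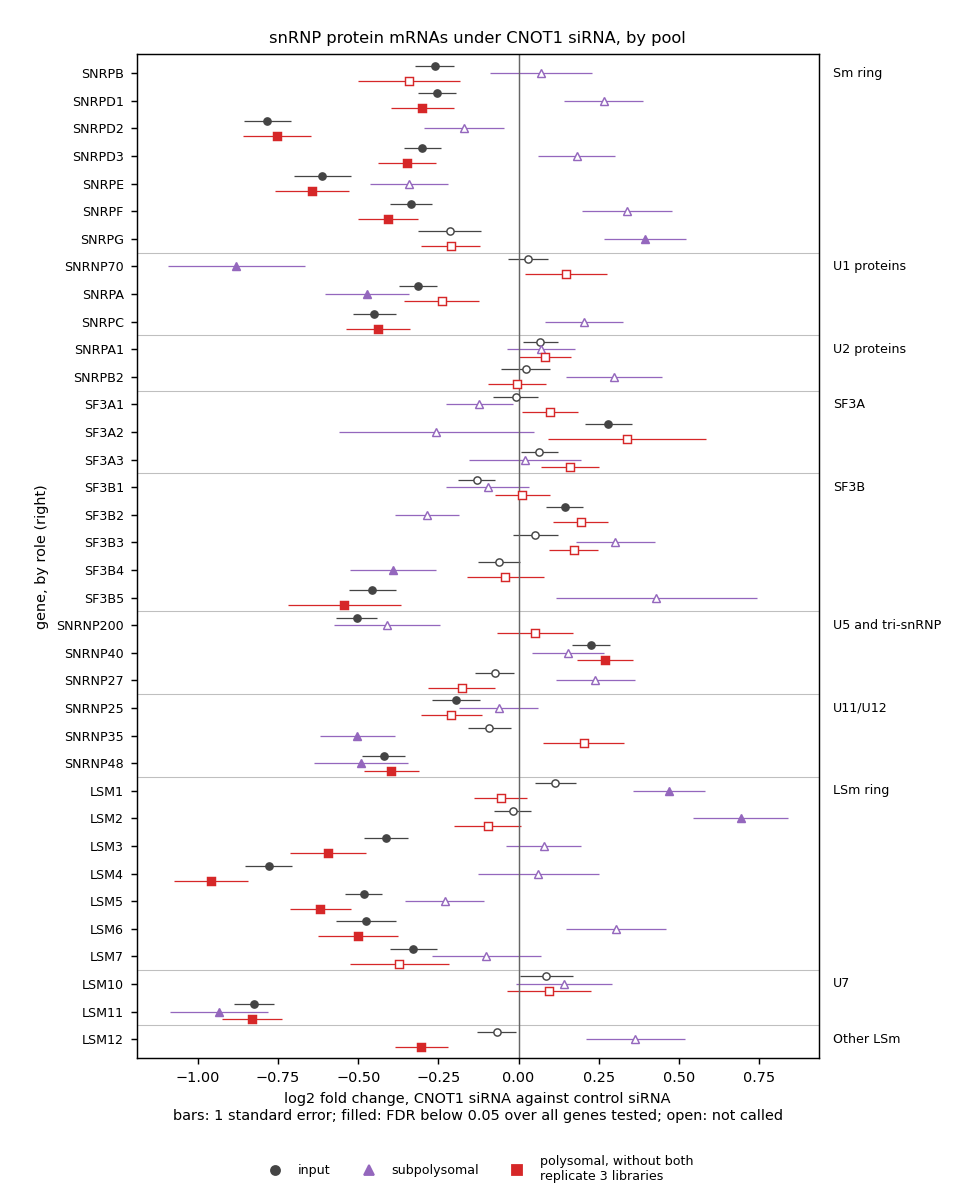
Log2 fold change of CNOT1 siRNA against control siRNA (x axis) for each of the 36 genes in input, subpolysomal and polysomal RNA, grouped by role, the last without both libraries labelled replicate 3. Bars are 1 standard error and filled points have an edgeR FDR below 0.05. LSM11 is at -0.82 in input, -0.93 in subpolysomal and -0.83 in polysomal RNA.

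The change in polysome association, the knockdown effect in polysomal minus that in subpolysomal RNA, was called in 0 members by edgeR with all labelled libraries, against 0.963% of 16506 genes in either direction. There were 7 members and 2486 of all genes at an unadjusted p below 0.05, and 3 members and 578 genes by DESeq2. Without both libraries labelled replicate 3, 12 members were lower and 3 higher (3.99% and 5.34% of 16805 genes). Without the control library of that label alone, 5 were lower and 0 higher (277 and 377 of 16820 genes). The 12 lower genes were 5 of the Sm ring, 5 of the LSm ring, SNRPC and LSM12. The lowest 5 were LSM4 at -1.02 ± 0.26 (FDR = 0.0207), LSM6 at -0.81 ± 0.22 (FDR = 0.0296), LSM2 at -0.79 ± 0.20 (FDR = 0.0199), SNRPF at -0.75 ± 0.18 (FDR = 0.0198) and LSM3 at -0.67 ± 0.17 (FDR = 0.0227). The higher genes were SNRNP70 at 1.03 ± 0.29 (FDR = 0.037), SNRNP35 at 0.70 ± 0.17 (FDR = 0.0181) and SF3B2 at 0.48 ± 0.13 (FDR = 0.0306). The 15 FDR values ran from 0.0181 to 0.0471, near the threshold. Genes named in the fits without these libraries were chosen after their values were seen. Scaled to total counts only, with all labelled libraries, 4 members were lower and 0 higher, and of all genes 52 were higher and 796 lower against 95 and 64.

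After TNRC6A and TNRC6B siRNA edgeR called 0 members and 0% of 14064 genes, with 0 members and 289 genes at an unadjusted p below 0.05. By DESeq2, 0 members and 8 genes were called. With the replicate block, 0 members were called, and of all genes 520 were higher and 243 lower. The members' median was -0.13 against -0.03. The control libraries differed widely from each other in several members. In SF3A2 and SNRPB the knockdown libraries differed in the same direction by replicate number. SF3A2 had 79.8 and 17.9 CPM after control siRNA and 79.9 and 30 CPM after knockdown, and SNRPB had 155 and 66.2 and 130 and 76.5 CPM. LSM6 had the lowest estimate, -0.51 ± 0.25, with 25.2 and 26.8 CPM against 16.9 and 19.7 CPM. It did not pass the test (edgeR FDR = 0.9999).

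Genes that work with these proteins were counted from the same fits as 52 further symbols, among them the U5 proteins PRPF8 and EFTUD2, the SMN and Gemin assembly factors and PATL1. Of the 52, 31 were lower and 7 higher in the eIF4A1 IP (26.5% and 26.1% of all genes), 33 and 7 in the eIF4A2 IP (25.8% and 24.5%), and 24 and 12 in the DDX6 IP (23.3% and 22.7%). PRPF8, the central U5 protein, was at -1.83 ± 0.18 (FDR = 4.48e-06), -1.55 ± 0.18 (FDR = 1.25e-05) and -1.54 ± 0.18 (FDR = 3.07e-05). PATL1, the partner of the cytoplasmic LSm ring, rose in the DDX6 IP at 1.39 ± 0.15 (FDR = 2.11e-05) and was at 0.09 ± 0.15 (FDR = 0.631) and 0.13 ± 0.15 (FDR = 0.468) with eIF4A1 and eIF4A2. The direct difference between DDX6 and eIF4A1 was 1.31 ± 0.15 (FDR = 0.0108) for PATL1. It was the only 1 of the 52 called in that comparison, where 0.0916% of all genes were called in either direction. LSM8, LSM14A and LSM14B, the other LSm partners counted, were not called there. In polysomal against subpolysomal RNA 33 of the 52 were higher and 8 lower after control siRNA (32.7% and 33% of all genes), and 36 and 6 after CNOT1 siRNA (34.6% and 32.1%). Without both libraries labelled replicate 3 the counts were 35 and 9 (32.3% and 35.4%), and 41 and 7 (36.6% and 34.6%). CNOT1 siRNA in input RNA gave 19 higher and 12 lower (29.4% and 31% of all genes), beside 3 and 18 of the 36 members, and the difference between the lists was not tested.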

How the data were processed

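Reads were made, aligned and counted by the authors, who deposited 1 count file per library with raw counts per gene symbol, not normalized. The sources name bcl2fastq 2.0, TopHat2, HTSeq and hg19. The aligner versions, the annotation release and the strand setting are not given in the sources used here. Libraries came from a TruSeq Stranded mRNA kit after poly(A) selection and were sequenced on a NextSeq 500. The authors' merged table of fold changes, mean log CPM, likelihood ratios, p-values and FDR was not used. Total gene counts ran from 15353317 to 46018900 per library.

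Groups came from the sample labels. The deposited counts were tested with edgeR 4.0.16 (R 4.3.3, limma 3.58.1), with TMM scaling, filterByExpr and a two-sided quasi-likelihood F test, and p-values were adjusted by Benjamini and Hochberg over all genes tested. The IP fit held all 12 libraries, each gradient fit the 8 (interaction 16) libraries compared, with TMM factors taken once over the 24, and the TNRC6 fit 4. Standard errors are the log2 fold change over the square root of F. CPM are counts over TMM-adjusted totals within an experiment, so levels are not compared between experiments. Lengths, overlaps, tetramers and GC content came from the GENCODE annotation lifted to GRCh37 (hg19), with 1 canonical transcript per gene, and 35455 of 55765 symbols were placed.

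Members, lists and tests were chosen with earlier results of these data known. Named genes are up to 5 called members with the largest and up to 5 with the smallest log2 fold change per comparison. Genes named beyond that, such as SF3B4 in subpolysomal RNA, SNRPD2 in the eIF4A1 and DDX6 IPs, and the single examples, were chosen after their values were seen. Scripts were tested on simulated data. DESeq2 1.42.0, RLE and total-count scaling, no filter, other library sets and the replicate block were the alternatives.

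Same-numbered libraries were taken as paired where the correlation of their deviations from the group means, across genes, was above 0.1 in every pair. The numbers come from the sample labels, which do not say what they share. This held for the 6 pairs of IP groups (0.184 to 0.782), for input (0.195 to 0.358) and for subpolysomal RNA (0.586 to 0.736) between siRNAs. The TNRC6 groups passed as well (0.862), but 2 pairs cannot establish pairing. Polysomal RNA did not pass (-0.562 to 0.102). Its groups include the 2 libraries that go against their labels, and the check was not rerun without them. It therefore cannot say whether the polysomal libraries were paired. Members with pseudogene copies could share reads. The 38 pseudogene rows named after 9 members held 198 counts over all libraries. How reads that match several places were counted is not given in the sources used here, so a loss of shared reads was not tested. Exons of 6 members overlap a gene on the same strand and those of 8 one on the other strand.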

Additional observations from a re-analysis of the deposited data

Results flagged for a closer look

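In groups of 4 libraries, the highest or lowest library was set against the others by Dixon's test for each of the 36 genes. It stood apart in 13 of 216 gene and group pairs, and chance gives about 1 in 20. No explanation was tested.

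Of the 13, 4 lay in the polysomal libraries labelled replicate 3, the pair whose CNOT1 level goes against their labels. After control siRNA, SNRNP25 was at 30.86 CPM in that library against 48.67 to 51.17 CPM in the others, and LSM5 at 39.31 CPM against 82.29 to 90.88. After CNOT1 siRNA, SNRNP48 was at 82.14 CPM against 55.42 to 58.3, and LSM11 at 42.35 CPM against 21.03 to 21.98.

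In input RNA, SNRPE at 137 CPM (others 103.2 to 104.4) and SNRPG at 136.4 CPM (others 94.28 to 98.64), both of the Sm ring, stood apart in the first CNOT1 siRNA library. SF3B1 was at 709.1 CPM in the third control library (others 742.6 to 745.8) and LSM11 at 42.45 CPM in the fourth (others 45.45 to 45.87).

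In subpolysomal RNA, LSM12 was at 335.1 CPM in the second control library (others 238.2 to 247.1) and SF3B2 at 147 CPM in the fourth (others 133.9 to 136.1). After CNOT1 siRNA, SNRNP25 was at 126.5 CPM in the third library (others 119 to 119.5), and in the fourth LSM5 was at 86.41 CPM (others 107.8 to 111.8) and LSM10 at 177.5 CPM (others 148.2 to 149.6).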

How the results depend on the processing

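Over all alternatives, counts of members called, higher and lower together, stayed within 1.5 times the main count in 153 of 177 recomputed values, without a reversed balance. Counts of 0 that stayed at 0 are among the 153. In polysomal RNA and in the TNRC6 experiment the main fit called 0% of all genes, so a count of 0 there says little about stability. The balance of higher and lower members reversed in 4 values, for the DDX6 IP and for CNOT1 siRNA in subpolysomal RNA. With total-count scaling, DDX6 IP against total RNA gave 23 calls (12 higher, 11 lower), CNOT1 siRNA in subpolysomal RNA 16, and the interaction (the change in polysome association) 4. With the replicate block, eIF4A2 against eIF4A1 gave 19, eIF4A2 against DDX6 26, DDX6 against eIF4A1 11 and CNOT1 siRNA in subpolysomal RNA 23, and the blocked counts of the other comparisons were within 1.5 times the main ones. In the TNRC6 experiment, where 2 pairs cannot establish pairing, the block gave 0 members, with 520 of all genes higher and 243 lower. Without the filter on low counts, eIF4A2 against eIF4A1 gave 5, eIF4A2 against DDX6 26 and the interaction 1. DESeq2 gave 1 for eIF4A2 against eIF4A1, 1 for DDX6 against eIF4A1 and 3 for the interaction. In subpolysomal RNA it gave 12 (7 higher, 5 lower), where the main fit had 3 higher and 6 lower. The replicate block (13 higher, 10 lower) and total-count scaling (15 higher, 1 lower) reversed that balance as well. The fit of all 24 gradient libraries gave 9 in input RNA and 3 for the interaction. Without both polysomal libraries labelled replicate 3, CNOT1 siRNA in polysomal RNA and the interaction each gave 15. Leaving out each library in turn gave 23 to 26 calls for the eIF4A1, 21 to 24 for the eIF4A2 and 18 to 20 for the DDX6 IP, 4 to 17 for eIF4A2 against DDX6 and 0 to 0 for the other IP pairs. It gave 24 to 29 and 27 to 31 for polysomal against subpolysomal RNA after control and CNOT1 siRNA, 20 to 22 in input, 5 to 9 in subpolysomal and 0 to 0 in polysomal RNA, 0 to 5 for the interaction and 0 to 0 for TNRC6. Among named members no direction reversed. Where a call changed, the cause was not tested. With 2 to 4 libraries a group, calls with an FDR just under 0.05 such as SNRPG in subpolysomal RNA could be lost by leaving out 1 library.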
